A study of Homo sapiens with 12 samples.

Results

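Expression of the ligands, receptors, antagonists and feedback regulators of the WNT pathway was followed in C4.2B cells, an established human line of castration-resistant prostate cancer derived from LNCaP. The genes were all entries of the count tables whose symbol names a WNT ligand, a Frizzled receptor (FZD), an R-spondin receptor (LGR4 to LGR6), a secreted antagonist (SFRP1 to SFRP5, DKK1 to DKK4 or WIF1), a feedback regulator or target (AXIN1, AXIN2, RNF43, ZNRF3, NKD1 or NKD2) or a nuclear factor (LEF1 or TCF7). The rule found 49 of 23228 genes. RNA-seq was performed on 12 libraries in 4 arms of 3, named A, B and C: vehicle (DMSO), 0.5 µM of the PI3K inhibitor GDC-0941 (GDC), 5 µM of the EZH2 inhibitor GSK126 (GSK) and both agents together (COMBO). Every arm was dosed for 24 hours in medium with 10% charcoal-stripped serum, in which steroid hormones are depleted. GSK and COMBO cells had first been kept in GSK126 for 6 days, and DMSO and GDC cells had been kept in vehicle over that time, so a comparison with DMSO covers the pretreatment as well as the last 24 hours. The replicates were plates of 1 cell line seeded side by side, and p-values therefore measure the spread between plates.

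WNT proteins are secreted ligands that bind Frizzled receptors together with the co-receptors LRP5 or LRP6. In the canonical branch this stops the destruction complex, built on AXIN and APC, from degrading beta-catenin, which then acts with the nuclear factors of the TCF/LEF family, and several of the genes it turns on, among them AXIN2, RNF43, ZNRF3 and NKD1, restrain the pathway in turn. In noncanonical branches, ligands such as WNT5A act through Frizzled and ROR receptors without beta-catenin, and WNT5A is known for its expression in advanced prostate cancer. EZH2 trimethylates histone H3 at lysine 27, a repressive mark, and many developmental genes, WNT ligands included, carry that mark in some tissues.

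Libraries held 8785218 to 44437751 counts in genes. The share of reads counted in genes averaged 75.8% with vehicle, 74.1% with GDC-0941, 70.7% with GSK126 and 67.6% with both agents, and the 49 genes took between 0.0650% and 0.0678% of gene counts in DMSO libraries and between 0.0810% and 0.0851% in COMBO libraries. All 8 luminal prostate markers were above 1 CPM (read counts scaled to library size, with TMM factors) in every arm, and none of 3 basal and none of 4 leukocyte markers was. Among 6 fibroblast markers, COL1A1 alone was above 1 CPM in every arm. COL3A1 averaged 0.350 CPM in DMSO and 1.70 CPM in COMBO, and COL1A2 did not exceed 0.0847 CPM. The summed level of the 6 ran from 10.3 to 11.7 CPM in DMSO, 11.1 to 14.4 CPM in GDC, 26.2 to 38.7 CPM in GSK and 29.4 to 48.5 CPM in COMBO. Of 3 endothelial markers VWF alone was above 1 CPM, at 2.74 to 6.89 CPM, and PECAM1 did not exceed 0.158 CPM. The part of these shifts in the results was not tested. In bulk RNA, fewer cells that express a gene and less RNA per cell cannot be told apart.

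Of the 49 genes, 28 had enough counts to be tested among 14189 genes, 21 did not, and 4 of those (DKK2, DKK4, FZD10 and WNT8A) had 0 counts in all libraries. WNT2B and SFRP1 were below the expression minimum of 0.705 CPM in every DMSO library, and were tested because treated libraries lay above it. WNT3, WNT4 and WNT9A were above it in some DMSO libraries. A gene was called changed at an adjusted p under 0.05 (edgeR quasi-likelihood test, Benjamini-Hochberg adjustment over all tested genes).

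Most of the tested genes were called changed in the arms with GSK126, in both directions, and 13 of the 28 were called in GDC. In GSK, 14 of the 28 rose, where 40.0% of all tested genes did, and 9 fell, where 35.7% of all did. In COMBO, 15 rose against 43.3% of all tested genes, and 9 fell against 39.2%. In GDC, 8 rose and 5 fell, and the share of all tested genes was 20.0% in each direction. At the adjusted p alone these counts lie near the shares of all genes and are no result about the WNT genes as a group. With the further demand of a change of at least 2-fold, 8 of the 28 rose in GSK against 16.0% of all genes and 8 rose in COMBO against 19.9%, whereas 3 fell in GSK against 5.86% and 2 fell in COMBO against 11.2%. In GDC, 1 gene (SFRP1) rose 2-fold against 1.73% of all genes and 1 (WNT5A) fell 2-fold against 0.148%. The median log2 fold change of the 28 was 0.08 in GDC, 0.43 in GSK and 0.37 in COMBO, beside 0.02, 0.06 and 0.05 over all tested genes. The 3 comparisons share the DMSO libraries. WNT2B and SFRP1, under the expression minimum in every DMSO library, are among the genes that rose 2-fold in GSK and COMBO. The counts of rises and the medians that hold them are therefore no support for a direction. FZD6 and WNT3 were called in no arm. Over all tested genes the split of calls moved with the scaling: rises were 50% of the calls in GDC, and 38.7% with DESeq2 or 35.9% with no filter on low counts. In GSK rises were 52.8% of the calls, and 64.0% when scaled by library totals, and in COMBO these shares were 52.5% and 63.3%.

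**Figure D1:**
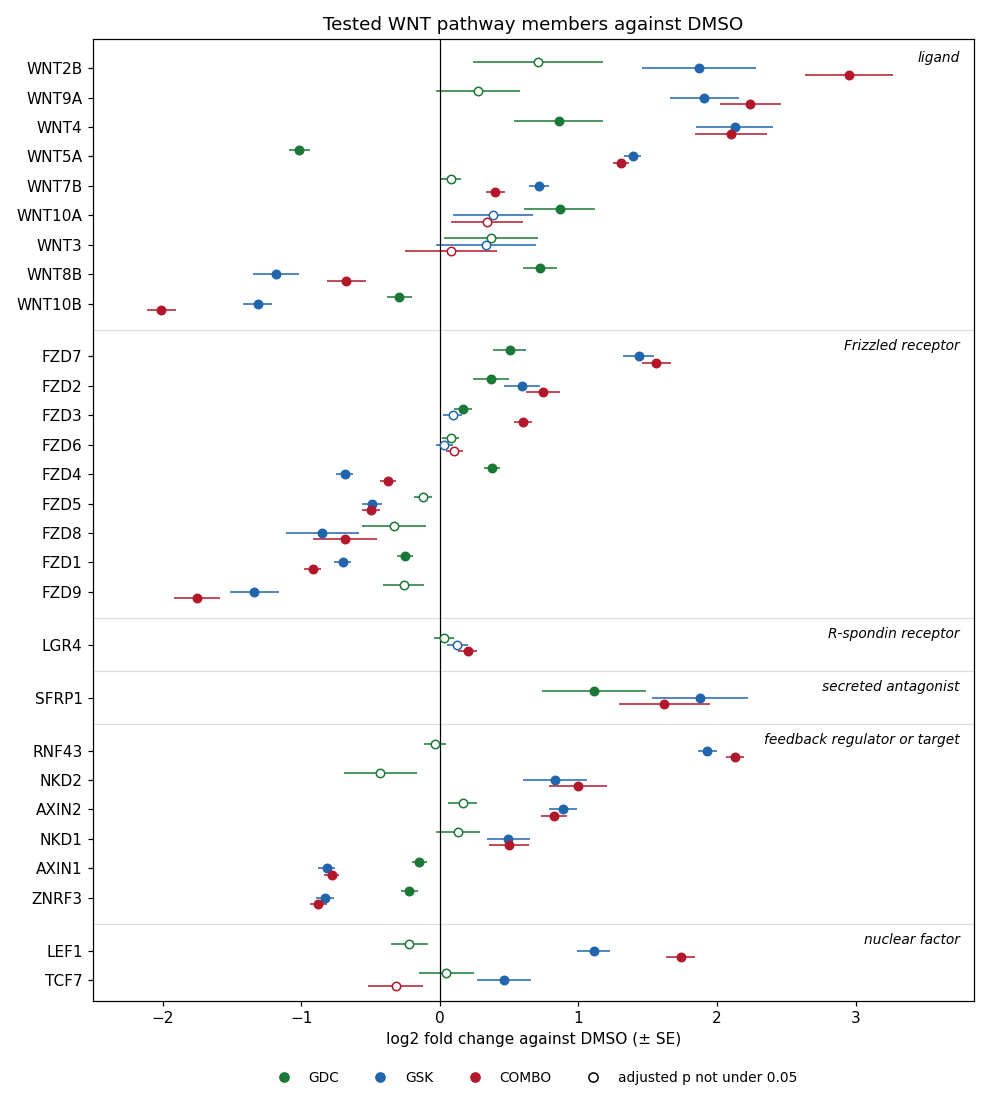
Log2 fold change against DMSO (horizontal axis, with SE) of the 28 tested WNT pathway genes, grouped by role, in GDC (green), GSK (blue) and COMBO (red), with open circles where the adjusted p was not under 0.05. In GSK and COMBO the changes run from the 2-fold and larger rises of WNT2B, WNT9A, WNT4, WNT5A, FZD7, SFRP1, RNF43 and LEF1 to the falls of WNT10B and FZD9, and WNT5A is the gene whose green point lies farthest below 0. WNT2B and SFRP1 were under the expression minimum in every DMSO library, so their points are no support for a rise.

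Promoter windows of RefSeq (GRCh38.p14, from 250 bases before to 50 bases after the annotated start) matched 33 of the 49 genes. 5 are shown, with every CG in capitals, because genes that moved together under GSK126 had windows of very different CG content: RNF43, WNT5A and WNT9A rose in GSK and COMBO, and AXIN1 and WNT8B fell.
RNF43: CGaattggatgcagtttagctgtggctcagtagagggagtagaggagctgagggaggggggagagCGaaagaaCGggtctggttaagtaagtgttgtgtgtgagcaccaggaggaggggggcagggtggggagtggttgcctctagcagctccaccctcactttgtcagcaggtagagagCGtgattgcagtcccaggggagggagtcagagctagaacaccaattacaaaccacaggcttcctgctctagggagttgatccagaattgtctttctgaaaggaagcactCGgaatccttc
WNT5A: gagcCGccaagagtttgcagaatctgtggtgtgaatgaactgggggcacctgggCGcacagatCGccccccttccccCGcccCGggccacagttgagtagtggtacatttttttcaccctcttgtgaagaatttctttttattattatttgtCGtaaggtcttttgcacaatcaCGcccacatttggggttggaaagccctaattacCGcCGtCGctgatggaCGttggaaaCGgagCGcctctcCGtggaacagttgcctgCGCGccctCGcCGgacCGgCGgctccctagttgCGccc
WNT9A: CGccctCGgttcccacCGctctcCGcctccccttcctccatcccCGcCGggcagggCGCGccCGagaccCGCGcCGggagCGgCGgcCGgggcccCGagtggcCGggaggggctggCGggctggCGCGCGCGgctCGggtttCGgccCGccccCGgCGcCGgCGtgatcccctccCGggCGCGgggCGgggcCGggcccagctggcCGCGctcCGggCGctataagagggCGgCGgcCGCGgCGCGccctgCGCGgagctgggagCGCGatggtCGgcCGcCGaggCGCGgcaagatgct
AXIN1: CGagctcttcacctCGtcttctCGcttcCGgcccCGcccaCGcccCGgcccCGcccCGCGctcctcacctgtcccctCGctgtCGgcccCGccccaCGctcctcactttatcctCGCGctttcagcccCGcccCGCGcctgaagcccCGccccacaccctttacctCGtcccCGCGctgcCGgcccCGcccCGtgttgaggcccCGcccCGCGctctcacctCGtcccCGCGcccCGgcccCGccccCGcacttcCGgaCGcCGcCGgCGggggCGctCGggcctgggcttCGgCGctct
WNT8B: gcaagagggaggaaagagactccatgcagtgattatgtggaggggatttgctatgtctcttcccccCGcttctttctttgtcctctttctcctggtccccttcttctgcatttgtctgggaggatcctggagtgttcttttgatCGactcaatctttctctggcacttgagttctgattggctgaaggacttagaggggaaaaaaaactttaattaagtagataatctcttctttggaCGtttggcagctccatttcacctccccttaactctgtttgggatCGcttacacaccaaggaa
These windows lie at chr17:58417485-58417784 (minus strand, RNF43), chr3:55487257-55487556 (minus strand, WNT5A), chr1:227947883-227948182 (minus strand, WNT9A), chr16:352674-352973 (minus strand, AXIN1), chr10:100462759-100463058 (plus strand, WNT8B), and hold 5, 21, 53, 44 and 4 CG pairs in that order. The ratio of observed CG to that expected from the C and G content of the window was 0.25 for RNF43, 0.88 for WNT5A, 1.03 for WNT9A, 1.13 for AXIN1 and 0.26 for WNT8B. It exceeded 0.6 in 26 of the 33 windows (78.8%), beside 65.6% of the 18013 windows of genes with at least 1 count and 48.8% of all 35114 windows. Among the matched genes its median was 0.79 for the 7 called higher in both GSK and COMBO and 0.85 for the 7 called lower in both. The letters CTTTG followed at each of the next 2 positions by A or T, a form of the TCF/LEF binding motif, were searched on both strands and were found in 2 of the 33 windows (6.06%), those of DKK1 and WNT3, beside 10.5% of the windows of genes with at least 1 count and 13.8% of all windows. A match is a description of the letters alone.

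Among the 19 WNT ligands, 9 were tested. In GSK 5 rose and 2 fell, where 40.0% of all tested genes rose and 35.7% fell. In COMBO 5 rose and 2 fell, against 43.3% and 39.2%. WNT2B, 1 of the 5, passed the expression minimum through GSK and COMBO libraries only. WNT5A (chr3:55465715-55490539, minus strand), a ligand of mainly noncanonical signaling, was measured at 26.8, 28.4 and 28.4 CPM in DMSO, 14.1, 13.2 and 14.4 CPM in GDC, 68.2, 74.5 and 77.5 CPM in GSK and 67.6, 67.8 and 73.1 CPM in COMBO (libraries A, B and C). The GDC libraries were all below and the GSK and COMBO libraries all above the DMSO libraries, and GSK and COMBO overlapped. The change was -1.01 ± 0.07 on the log2 scale in GDC (2.02-fold lower, adjusted p = 5.08e-09), 1.39 ± 0.06 in GSK (2.62-fold higher, adjusted p = 7.6e-14) and 1.31 ± 0.06 in COMBO (2.47-fold higher, adjusted p = 4.06e-14); values after ± on the log2 scale are SE. The PI3K inhibitor and the EZH2 inhibitor thus moved WNT5A in opposite directions, and its level with both agents differed from that with GSK126 alone by -0.08 ± 0.06 (adjusted p = 0.236).

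WNT4, WNT9A and WNT2B, ligands with roles in reproductive tract, skeletal and endodermal development, were present at low levels in DMSO and rose at least 2-fold in GSK and COMBO. WNT4 (chr1:22117313-22143969, minus strand) was read at 0.211, 0.885 and 1.06 CPM in DMSO, 1.06, 2.22 and 1.34 CPM in GDC, 3.96, 3.48 and 4.15 CPM in GSK and 3.43, 3.77 and 4.22 CPM in COMBO. GSK and COMBO libraries were all above those of DMSO and GDC, by 4.37-fold (log2 2.13 ± 0.28, adjusted p = 8.88e-07) and 4.29-fold (log2 2.10 ± 0.26, adjusted p = 2.78e-07) against DMSO. In GDC the lowest library and the highest DMSO library both stood at 1.06 CPM, the change was 0.86 ± 0.32 (adjusted p = 0.0378), and that call was lost without DMSO A, DMSO B, GDC B or GDC C, with log2 values of 0.43 to 0.93 and adjusted p of 0.0516 to 0.384.

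WNT9A (chr1:227918656-227947932, minus strand) was counted at 0.421, 0.664 and 0.866 CPM in DMSO, 1.15, 0.862 and 0.738 CPM in GDC, 2.75, 3.24 and 2.37 CPM in GSK and 3.89, 3.33 and 3.35 CPM in COMBO. Its DMSO and GDC libraries overlapped, and those of GSK and COMBO lay above them without overlap between each other. The rise was 3.76-fold in GSK (log2 1.91 ± 0.25, adjusted p = 8.28e-07) and 4.72-fold in COMBO (log2 2.24 ± 0.22, adjusted p = 1.03e-08), whereas the value in GDC was 0.28 ± 0.30 (adjusted p = 0.543). WNT2B (chr1:112466541-112530165, plus strand) stood at 0.316, 0.0553 and 0.361 CPM in DMSO, 0.442, 0.493 and 0.402 CPM in GDC, 0.879, 1.26 and 0.847 CPM in GSK and 2.09, 2.17 and 2.18 CPM in COMBO. The COMBO libraries were all above the GSK libraries, which were all above those of GDC and DMSO. WNT2B passed the expression minimum through GSK and COMBO libraries only, so its rise is given with no test. Its fitted log2 values were 1.87 ± 0.41 in GSK and 2.95 ± 0.32 in COMBO, from a DMSO level near that of a few reads. DMSO C held 15 of its 19 DMSO counts, and without that library the log2 values were 2.70 in GSK and 3.80 in COMBO. Over all alternatives they ran from 1.48 to 2.70 and from 2.58 to 3.80. Exons of WNT2B overlap those of ST7L on the opposite strand by 2598 bases, and since the use of strand in counting is not stated, reads of the overlap cannot be assigned.

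The ligands that fell were WNT10B and WNT8B. WNT10B (chr12:48965340-48971735, minus strand), a canonical ligand known to restrain adipocyte formation, was found at 18.1, 19.2 and 17.3 CPM in DMSO, 15.3, 14.7 and 14.4 CPM in GDC, 7.80, 6.64 and 7.54 CPM in GSK and 5.05, 3.95 and 4.59 CPM in COMBO. The 4 arms did not overlap, in the order DMSO, GDC, GSK and COMBO from high to low. WNT10B fell by 0.29 ± 0.09 on the log2 scale in GDC (adjusted p = 0.0135), by 1.31 ± 0.10 in GSK (2.48-fold, adjusted p = 6.49e-10) and by 2.01 ± 0.10 in COMBO (4.03-fold, adjusted p = 3.5e-13). The GDC call was lost without DMSO B (-0.25, adjusted p = 0.0614) or GDC C (-0.27, adjusted p = 0.0535) when TMM factors were held. Its neighbor WNT1, which lies 6.59 kb away on chromosome 12 on the opposite strand, had 1 count in all libraries together.

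WNT8B (chr10:100463009-100483744, plus strand), a ligand of the developing forebrain, was measured at 5.79, 6.80 and 6.02 CPM in DMSO, 8.75, 10.6 and 11.2 CPM in GDC, 2.20, 3.32 and 2.54 CPM in GSK and 3.77, 3.82 and 4.15 CPM in COMBO. The arms again did not overlap, and here GDC was the highest, followed by DMSO, COMBO and GSK. It rose in GDC (log2 0.72 ± 0.12, 1.65-fold, adjusted p = 0.000123) and fell in GSK (log2 -1.18 ± 0.17, 2.27-fold, adjusted p = 2.16e-06) and in COMBO (log2 -0.67 ± 0.14, 1.60-fold, adjusted p = 0.00017). Of the other 3 tested ligands, WNT7B rose by 0.72 ± 0.07 in GSK (adjusted p = 1.75e-08) and by 0.40 ± 0.07 in COMBO (adjusted p = 2.46e-05), WNT10A was called in GDC alone (log2 0.86 ± 0.25, adjusted p = 0.0104), and WNT3 had values of 0.08 to 0.37 with adjusted p of 0.41 or more. The WNT10A call in GDC was lost without DMSO C (0.79, adjusted p = 0.0731) or GDC B (0.69, adjusted p = 0.0789), and WNT10A was called in COMBO without COMBO B (0.61, adjusted p = 0.0389).

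**Figure D2:**
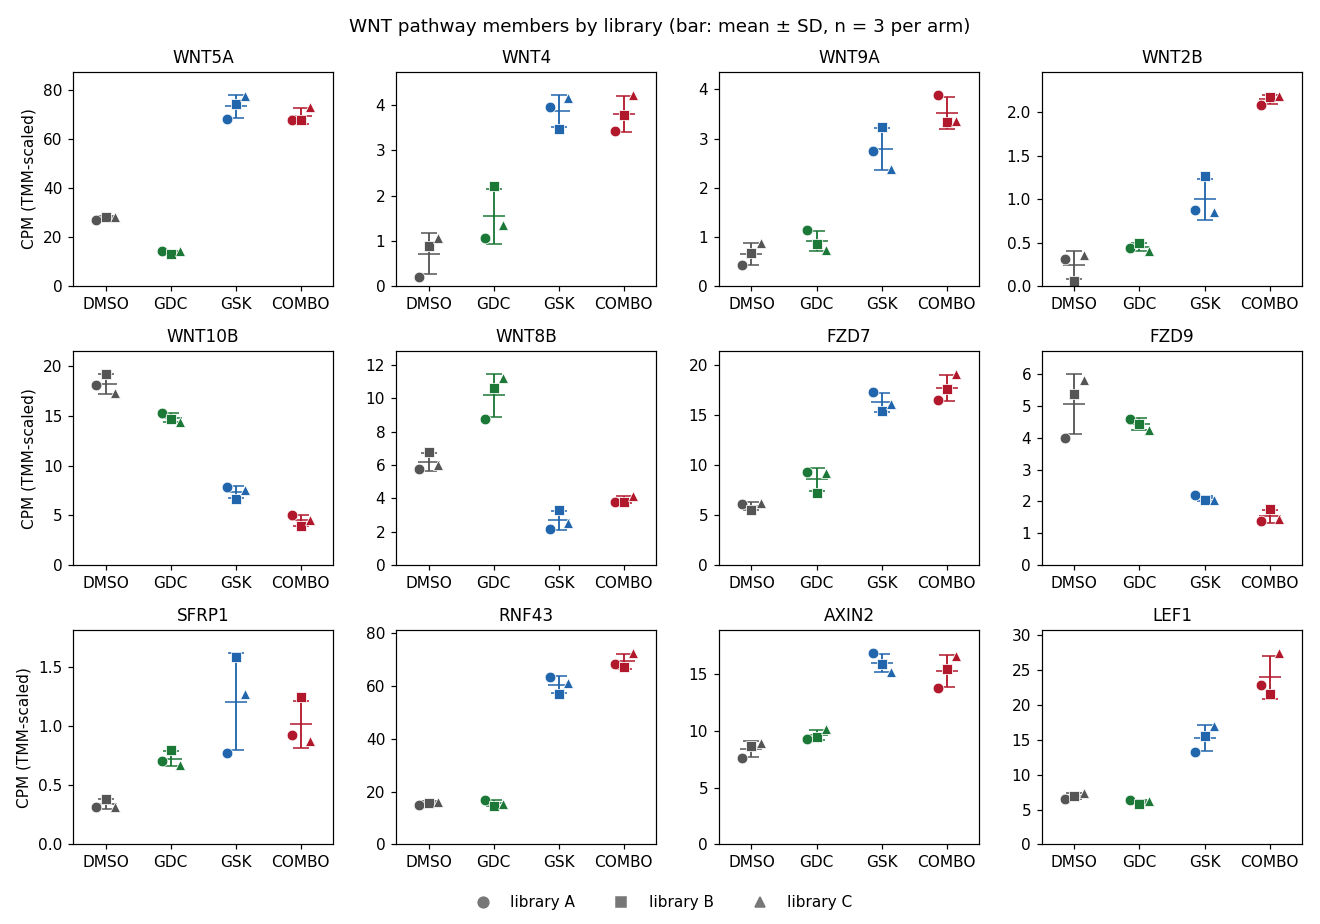
TMM-scaled CPM (vertical axes, from 0) of 12 WNT pathway genes in each of the 12 libraries by arm, with circles, squares and triangles for libraries A, B and C, and the mean ± SD of each arm. WNT5A is lowest in GDC and highest in GSK and COMBO, WNT10B falls in steps to 3.95 to 5.05 CPM in COMBO, and RNF43 is between 56.9 and 72.4 CPM in the 6 libraries with GSK126 and between 14.4 and 16.7 CPM in the other 6.

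Of 9 tested Frizzled receptors, 2 rose and 5 fell in GSK, where 40.0% of all tested genes rose and 35.7% fell, and 3 rose and 5 fell in COMBO, against 43.3% and 39.2%. FZD7 (chr2:202033855-202038441, plus strand), a receptor known for canonical signaling in stem cells and several carcinomas, was measured at 6.10, 5.47 and 6.26 CPM in DMSO, 9.28, 7.21 and 9.19 CPM in GDC, 17.3, 15.4 and 16.1 CPM in GSK and 16.5, 17.6 and 19.1 CPM in COMBO. The GDC libraries were all above those of DMSO, and the GSK and COMBO libraries were all above those of GDC. Its rise was 1.42-fold in GDC (log2 0.50 ± 0.12, adjusted p = 0.00225), 2.70-fold in GSK (log2 1.43 ± 0.11, adjusted p = 4.66e-10) and 2.95-fold in COMBO (log2 1.56 ± 0.10, adjusted p = 2.52e-11). FZD9 (chr7:73433778-73436120, plus strand), a receptor with roles in bone and brain, went the other way, at 4.0, 5.36 and 5.80 CPM in DMSO, 4.60, 4.44 and 4.22 CPM in GDC, 2.20, 2.06 and 2.03 CPM in GSK and 1.39, 1.78 and 1.46 CPM in COMBO. Its GSK and COMBO libraries lay below all DMSO and GDC libraries. FZD9 fell by 1.34 ± 0.18 on the log2 scale in GSK (2.53-fold, adjusted p = 1.11e-06) and by 1.75 ± 0.17 in COMBO (3.37-fold, adjusted p = 6.73e-09), and its value in GDC was -0.26 ± 0.15 (adjusted p = 0.161), which was called without DMSO A (-0.39, adjusted p = 0.0295).

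The other Frizzled receptors changed by less than 2-fold. FZD1 ran from 88.9 to 93.2 CPM in DMSO, 70.2 to 83.4 CPM in GDC, 54.2 to 60.1 CPM in GSK and 46.0 to 50.3 CPM in COMBO, and was called lower in each arm, by 0.92 ± 0.06 on the log2 scale in COMBO (adjusted p = 1.94e-11). FZD4, the receptor of the ligand norrin, ran from 137 to 148 CPM in DMSO, 171 to 202 CPM in GDC, 85.9 to 90.9 CPM in GSK and 104 to 116 CPM in COMBO, so that it rose in GDC (log2 0.38 ± 0.06, adjusted p = 3.68e-05) and fell both in GSK (log2 -0.69 ± 0.06, adjusted p = 3.2e-09) and in COMBO (log2 -0.38 ± 0.06, adjusted p = 6.35e-06). FZD4 shares 1255 exonic bases with PRSS23 on the opposite strand, a gene with 272 to 731 counts per arm. FZD5 fell from 45.8 to 50.3 CPM in DMSO to 33.5 to 35.6 CPM in GSK (log2 -0.49 ± 0.07, adjusted p = 3.65e-06) and 30.9 to 37.7 CPM in COMBO (log2 -0.50 ± 0.07, adjusted p = 1.06e-06). FZD8 also fell in both arms, from 2.32 to 2.53 CPM in DMSO to 1.27 to 1.5 CPM in GSK (log2 -0.85 ± 0.26, adjusted p = 0.00659) and 0.929 to 2.09 CPM in COMBO, although the FZD8 call in COMBO (log2 -0.68 ± 0.23, adjusted p = 0.00957) was lost without COMBO A (-0.44, adjusted p = 0.0676).

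FZD2 rose in all 3 arms, from 7.24 to 7.87 CPM in DMSO to 11.9 to 14.6 CPM in COMBO (log2 0.74 ± 0.12, adjusted p = 1.24e-05). FZD3, a receptor of planar cell polarity, was at 63.9 to 69.9 CPM in DMSO, 70.4 to 85.0 CPM in GDC, 70.0 to 75.9 CPM in GSK and 98.7 to 106 CPM in COMBO, with a change of 0.09 ± 0.07 in GSK (adjusted p = 0.217) and a rise of 0.60 ± 0.06 in COMBO (adjusted p = 2.89e-08). The GDC calls of both genes depended on the libraries used: that of FZD3 (log2 0.17 ± 0.07, adjusted p = 0.0499) was lost without any 1 of the 6 DMSO and GDC libraries (0.038 to 0.17, adjusted p 0.0637 to 0.688), and that of FZD2 (log2 0.37 ± 0.13, adjusted p = 0.0305) without any of them but GDC B (0.25 to 0.37, adjusted p 0.0815 to 0.219). FZD6 ran from 77.0 to 93.7 CPM over all libraries, with log2 values of 0.03 to 0.10 and adjusted p of 0.118 to 0.64.

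Of the R-spondin receptors, LGR4 alone was tested. It ran from 31.6 to 38.0 CPM in DMSO and 35.9 to 42.2 CPM in COMBO, overlapping, with a change of 0.20 ± 0.07 in COMBO (adjusted p = 0.0121), a call that was lost without DMSO B (0.14, adjusted p = 0.0903) or COMBO B (0.15, adjusted p = 0.0692). LGR5, a stem cell marker and WNT target, had 0 counts in each DMSO and each GSK library, 1, 0 and 0 in GDC and 0, 1 and 2 in COMBO. LGR6 had 2, 0, 11 and 7 counts over the libraries of DMSO, GDC, GSK and COMBO.

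Of the 9 secreted antagonists, SFRP1 was the only gene with enough counts to test. SFRP1 (chr8:41261962-41309473, minus strand), a decoy that binds WNT proteins and is silenced in many carcinomas, stood at 0.316, 0.387 and 0.313 CPM in DMSO, 0.707, 0.801 and 0.671 CPM in GDC, 0.769, 1.58 and 1.27 CPM in GSK and 0.929, 1.24 and 0.874 CPM in COMBO. The libraries of each treated arm were all above those of DMSO, the GSK libraries overlapped those of GDC and COMBO, and the COMBO libraries lay above those of GDC. SFRP1 passed the expression minimum through treated libraries only, so its rises are given with no test. Its fitted log2 values were 1.11 ± 0.37 in GDC, 1.88 ± 0.35 in GSK and 1.62 ± 0.33 in COMBO. It counts among the genes called in GDC, a call lost without DMSO C, GDC A, GDC B or GDC C (log2 0.96 to 1.14). The Dickkopf proteins and WIF1, which block LRP5 and LRP6 or bind WNT proteins, were at or near 0: DKK1 had 4 counts in the whole series, and WIF1 had 1 in each arm.

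All 6 feedback regulators and targets were tested. In GSK 4 rose and 2 fell, where 40.0% of all tested genes rose and 35.7% fell. In COMBO 4 rose and 2 fell, against 43.3% and 39.2%. RNF43 (chr17:58353676-58417595, minus strand), a ubiquitin ligase that removes Frizzled receptors from the cell surface, was read at 15.1, 15.9 and 16.1 CPM in DMSO, 16.7, 14.4 and 15.5 CPM in GDC, 63.4, 56.9 and 61.2 CPM in GSK and 68.4, 67.1 and 72.4 CPM in COMBO. The 6 libraries with GSK126 were all above the 6 without it. RNF43 rose 3.81-fold in GSK (log2 1.93 ± 0.07, adjusted p = 2.98e-15) and 4.37-fold in COMBO (log2 2.13 ± 0.06, adjusted p = 7.36e-17), and its value in GDC was -0.04 ± 0.08 (adjusted p = 0.747). ZNRF3 (chr22:28883572-29057488, plus strand), the homolog of RNF43 with the same role, moved in the opposite direction, at 44.6, 44.6 and 42.5 CPM in DMSO, 37.8, 36.2 and 38.6 CPM in GDC, 26.0, 23.6 and 24.3 CPM in GSK and 22.5, 24.0 and 25.1 CPM in COMBO. It fell by 0.22 ± 0.06 on the log2 scale in GDC (adjusted p = 0.00592), by 0.83 ± 0.07 in GSK (adjusted p = 5.12e-10) and by 0.88 ± 0.06 in COMBO (adjusted p = 4.71e-11), with each treated arm below all DMSO libraries.

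The AXIN scaffolds also parted. AXIN2 (chr17:65528563-65561648, minus strand), a widely used readout of beta-catenin activity, was counted at 7.58, 8.68 and 8.95 CPM in DMSO, 9.28, 9.42 and 10.1 CPM in GDC, 16.8, 15.9 and 15.2 CPM in GSK and 13.8, 15.4 and 16.6 CPM in COMBO. Each treated arm was above all DMSO libraries, and GSK and COMBO were above GDC. The rise was 1.85-fold in GSK (log2 0.89 ± 0.10, adjusted p = 1.06e-07) and 1.77-fold in COMBO (log2 0.82 ± 0.09, adjusted p = 9.85e-08), and the value in GDC was 0.16 ± 0.10 (adjusted p = 0.22). AXIN1, the constitutive scaffold of the destruction complex, was at 50.1 to 52.9 CPM in DMSO, 46.1 to 47.7 CPM in GDC, 28.2 to 30.5 CPM in GSK and 29.1 to 31.7 CPM in COMBO, and fell by 0.82 ± 0.06 on the log2 scale in GSK (adjusted p = 1.29e-10) and by 0.78 ± 0.05 in COMBO (adjusted p = 5.31e-11). Its GDC call (log2 -0.15 ± 0.05, adjusted p = 0.0345) was lost without any 1 of the 6 DMSO and GDC libraries but DMSO A when TMM factors were held (-0.16 to -0.13, adjusted p 0.0559 to 0.106).

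NKD1 (chr16:50548396-50649249, plus strand), a Dishevelled antagonist that is also a WNT target, stood at 4.10, 4.31 and 4.28 CPM in DMSO, 5.21, 3.57 and 5.36 CPM in GDC, 5.05, 6.01 and 6.78 CPM in GSK and 5.57, 6.04 and 6.55 CPM in COMBO. GSK and COMBO were above all DMSO libraries, and GDC overlapped DMSO and GSK and lay below COMBO. NKD1 rose by 0.49 ± 0.16 in GSK (adjusted p = 0.00797) and by 0.50 ± 0.15 in COMBO (adjusted p = 0.00357), and the GSK call was lost without GSK C (0.39, adjusted p = 0.0577). Its paralog NKD2 rose by 0.83 ± 0.23 in GSK (adjusted p = 0.00306), which was lost without GSK A (0.53, adjusted p = 0.0518), and by 0.99 ± 0.21 in COMBO (adjusted p = 0.000209).

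The nuclear factors differed from each other in COMBO. LEF1 (chr4:108047545-108168956, minus strand), a DNA-binding partner of beta-catenin and itself a WNT target, was measured at 6.53, 6.97 and 7.43 CPM in DMSO, 6.36, 5.79 and 6.24 CPM in GDC, 13.3, 15.5 and 16.9 CPM in GSK and 22.8, 21.6 and 27.4 CPM in COMBO. GDC libraries were all below DMSO, and the GSK libraries lay between DMSO and COMBO without overlap. LEF1 rose 2.16-fold in GSK (log2 1.11 ± 0.12, adjusted p = 4.38e-08) and 3.34-fold in COMBO (log2 1.74 ± 0.11, adjusted p = 4.88e-12), and the value in GDC was -0.22 ± 0.13 (adjusted p = 0.197). TCF7 (chr5:134114681-134151865, plus strand), which encodes TCF1, was at 2.21, 2.88 and 2.21 CPM in DMSO, 2.21, 2.09 and 3.15 CPM in GDC, 3.19, 3.64 and 3.14 CPM in GSK and 2.03, 1.73 and 2.11 CPM in COMBO. Its GSK libraries were above all DMSO libraries, and its COMBO libraries were below them. The change was 0.46 ± 0.19 in GSK (adjusted p = 0.0366), lost without DMSO A, DMSO C, GSK A or GSK B (0.32 to 0.45, adjusted p 0.0746 to 0.224), and -0.32 ± 0.20 in COMBO (adjusted p = 0.138). TCF7 shares 210 exonic bases with SKP1 on the opposite strand, a gene with 12823 to 26428 counts per arm.

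Among the genes too low to test, each gene had 37 or fewer counts over all 12 libraries, and values by arm are sums over 3 libraries. DKK3, an atypical Dickkopf protein, had 0 counts in DMSO and in GDC, 4 in GSK and 9 in COMBO. Set against the 3 counts that a count of 0 allows in the DMSO arm as a whole, this was 2.75-fold higher in GSK and 3.88-fold higher in COMBO. These 2 values leave out the counting error of the GSK and COMBO counts and are no lower bounds. LGR6, an R-spondin receptor, had a ratio of GSK to DMSO of 11.3 (95% interval 2.47 to 105, from 11 and 2 counts) and WNT5B, a noncanonical ligand related to WNT5A, a ratio of 10.3 (2.20 to 96.7, from 10 and 2 counts). GSK B held 8 of the 10 WNT5B counts and GSK C none, and the ratio was 3.31 without GSK B and 15.9 without GSK C. Both DMSO counts of WNT5B, and those of WNT2, came from DMSO C, so without it there is no ratio. In COMBO, WNT3A had 11 counts (ratio 7.11, 1.55 to 66.0, against 2), WNT2 had 10 (ratio 6.46, 1.38 to 60.7, against 2) and WNT6 had 11 (ratio 4.74, 1.25 to 26.5, against 3). These ratios are the ones whose interval leaves out 1, with no adjustment for the number of genes. Where the same genes had a ratio in the other arm, its interval held 1. In COMBO it was 4.52 (0.861 to 44.6) for LGR6 and for WNT5B. In GSK it was 3.09 (0.354 to 37.0) for WNT3A and 3.43 (0.668 to 22.1) for WNT6, and WNT2 had 0 counts. In the order DMSO, GDC, GSK and COMBO, SFRP2 had 8, 5, 9 and 15 counts and WNT7A had 4, 6, 7 and 2. The ratios of SFRP2 to DMSO were 2.32 (0.794 to 6.91) in GSK and 2.42 (0.965 to 6.60) in COMBO. Those of WNT7A were 3.61 (0.917 to 16.8) and 0.646 (0.0585 to 4.51). Ratios of WIF1, WNT16 and WNT9B, from 1 or 2 counts per arm, also had intervals that held 1. SFRP4, SFRP5, WNT1, WNT9B, WNT11 and WNT16 had 1 to 5 counts each over all libraries. The ratios are scaled to library size, and their intervals cover counting error only, not the spread between plates. Exons of DKK3 overlap USP47 and those of WNT2 overlap CFTR on the opposite strands.

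To ask what each agent added to the other, COMBO was set against both arms with 1 agent, comparisons that share the COMBO libraries. Adding GSK126 to GDC-0941 raised 14 of the 28 genes, where 37.9% of all tested genes rose, and lowered 8, where 38.0% fell (rises were 49.9% of all calls, and 62.8% when scaled by library totals). The 14 include WNT2B, which was under the expression minimum in every DMSO and GDC library. In that comparison WNT5A rose 5.00-fold (log2 2.32 ± 0.07, adjusted p = 1.27e-16), RNF43 4.48-fold (log2 2.16 ± 0.07, adjusted p = 3.25e-16) and LEF1 3.88-fold (log2 1.96 ± 0.12, adjusted p = 5.05e-12), and WNT10B fell by 1.72 ± 0.11 on the log2 scale (adjusted p = 1.83e-11). Adding GDC-0941 to GSK126 raised 6 of the 28, where 19.0% of all tested genes rose, and lowered 4, where 26.9% fell (rises were 41.4% of all calls, and 52.3% when scaled by library totals). WNT2B (log2 1.08 ± 0.29, adjusted p = 0.00441), LEF1 (0.63 ± 0.10, adjusted p = 4.87e-05), FZD3 (0.51 ± 0.07, adjusted p = 2.84e-06), WNT8B, FZD4 and RNF43 were higher in COMBO than in GSK. TCF7 (log2 -0.78 ± 0.21, adjusted p = 0.00416), WNT10B (-0.70 ± 0.13, adjusted p = 0.000166), WNT7B (-0.32 ± 0.07, adjusted p = 0.000944) and FZD1 were lower. The call of RNF43 was lost without GSK B when TMM factors were held (0.15, adjusted p = 0.0713). The call of WNT8B (0.51 ± 0.18, adjusted p = 0.0268) was lost without GSK A, GSK C or COMBO C (0.43 to 0.48, adjusted p 0.0608 to 0.0942), and that of FZD1 (-0.22 ± 0.07, adjusted p = 0.0104) without GSK A (-0.15, adjusted p = 0.118) or COMBO A (-0.15, adjusted p = 0.103).

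The interaction, the effect of GDC-0941 with GSK126 minus its effect without, was called for 6 of the 28 genes, 3 higher where 4.86% of all tested genes were, and 3 lower where 16.5% were. That split depends on the scaling: rises were 22.7% of all calls here, 33.4% with DESeq2, 35.2% with DESeq2 scaling in edgeR, 40.7% among genes averaging 1 CPM or more and 55.4% when low genes were not removed. For WNT5A, GDC-0941 gave -1.01 ± 0.07 without GSK126 and -0.08 ± 0.06 with it, a difference of 0.93 ± 0.09 (adjusted p = 6.23e-07). For LEF1 these effects were -0.22 ± 0.13 and 0.63 ± 0.10, a difference of 0.85 ± 0.17 (adjusted p = 0.00102), and for FZD3 they were 0.17 ± 0.07 and 0.51 ± 0.07, a difference of 0.34 ± 0.09 (adjusted p = 0.0116). These 3 calls were kept when any 1 library was left out, with TMM factors re-estimated or held. The lower calls were SFRP1 (-1.37 ± 0.47, adjusted p = 0.0449), TCF7 (-0.83 ± 0.29, adjusted p = 0.0432) and WNT7B (-0.39 ± 0.10, adjusted p = 0.00821), and each was lost when some libraries were left out and TMM factors were re-estimated. For SFRP1, under the expression minimum in every DMSO library, the call is no support for an interaction. SFRP1 lost the call without any 1 library other than GSK A and COMBO B (-1.39 to -1.05, adjusted p 0.068 to 0.184), TCF7 without any other than DMSO B (-0.89 to -0.55, adjusted p 0.0512 to 0.217), and WNT7B without DMSO A, DMSO C, GDC B, GSK A or COMBO A (-0.35 to -0.25, adjusted p 0.0517 to 0.109). Without DMSO C or without GDC B, 3 genes in all were called. Re-estimation itself moved the median interaction of all genes, from -0.063 to between -0.0085 and 0.0085 in 9 of the 12 fits. With the factors of all 12 libraries held, the WNT7B call was kept in all 12 fits, while SFRP1 lost it in 10 and TCF7 in 8. RNF43 (0.23 ± 0.10, adjusted p = 0.0968) was called without DMSO A, GDC A, GSK A or COMBO A (0.31 to 0.35, adjusted p 0.0296 to 0.0454), and AXIN1 (0.18 ± 0.08, adjusted p = 0.119) without DMSO A, GSK A or COMBO A (0.27 to 0.28, adjusted p 0.0325 to 0.0429). ZNRF3 was called without COMBO A (0.28, adjusted p = 0.0428) and WNT10A without COMBO C (-1.11, adjusted p = 0.0494). With the factors held, RNF43, AXIN1 and ZNRF3 were called in none of the 12 fits and WNT10A was called without COMBO C (-1.13, adjusted p = 0.044), FZD7 without GDC B (-0.50, adjusted p = 0.0291) and WNT10B without COMBO A (-0.50, adjusted p = 0.0381).

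**Figure D3:**
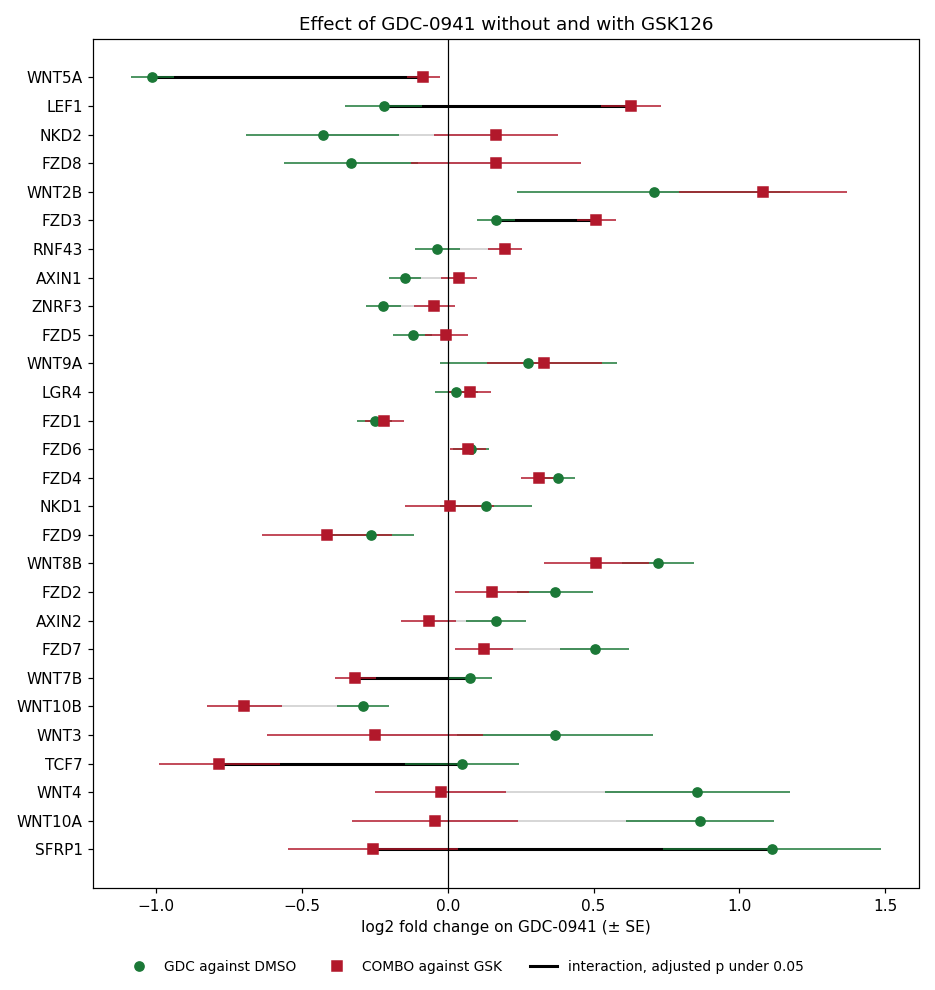
Log2 fold change on GDC-0941 (horizontal axis, with SE) of the 28 tested genes without GSK126 (GDC against DMSO, green circles) and with it (COMBO against GSK, red squares), ordered by the interaction, which is the distance from circle to square. Black lines join the 6 genes whose interaction had an adjusted p under 0.05, and the longest of the higher ones belong to WNT5A (0.93) and LEF1 (0.85).

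Of 74 other genes of the pathway in the count tables, 62 were tested. Of these, 17 rose and 7 fell in GDC, 37 rose and 13 fell in GSK, and 38 rose and 15 fell in COMBO, beside the shares of all tested genes given above for each arm. ROR2, TCF7L1, TLE4 and BMP4 were below the expression minimum of 0.705 CPM in every DMSO library and were tested because treated libraries lay above it, so their rises are given as levels with no test, and the counts that hold them are no support for a direction. Among 6 co-receptors and other WNT receptors, 3 rose and 2 fell in COMBO, where 43.3% of all tested genes rose and 39.2% fell. PTK7 was among those that rose (log2 1.69 ± 0.07, adjusted p = 1.73e-14). ROR2, a WNT5A receptor, stood at 0.211 to 0.265 CPM in DMSO, 0.185 to 0.619 CPM in GDC, 1.03 to 1.43 CPM in GSK and 0.929 to 1.53 CPM in COMBO. PTK7, a pseudokinase of planar cell polarity, was at 21.3, 27.9 and 26.4 CPM in DMSO, 35.7, 32.0 and 35.5 CPM in GDC, 79.3, 80.6 and 72.6 CPM in GSK and 79.7, 82.8 and 86.5 CPM in COMBO. The GDC libraries of PTK7 were all above those of DMSO, and the GSK and COMBO libraries were all above both. Of the pair of genes for WNT secretion, WLS, the carrier that takes WNT proteins to the cell surface, was at 7.05, 7.08 and 6.98 CPM in DMSO, 6.01, 7.39 and 7.51 CPM in GDC, 25.3, 28.1 and 22.5 CPM in GSK and 28.6, 29.1 and 25.6 CPM in COMBO. It rose 3.96-fold in COMBO (log2 1.99 ± 0.10, adjusted p = 1.24e-13) and 3.61-fold in GSK (log2 1.85 ± 0.10, adjusted p = 2.19e-12), with every GSK126 library above every other. PORCN, which acylates WNT proteins, had a change of 0.20 ± 0.10 in COMBO (adjusted p = 0.057).

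Counts by role in COMBO are to be read beside the 43.3% of all tested genes that rose and the 39.2% that fell. Of 7 tested extracellular agonists and antagonists outside the rule, 5 rose and 1 fell in COMBO, the largest changes being those of RSPO4, an R-spondin (log2 2.38 ± 0.22, adjusted p = 4.13e-09), and TPBG, a membrane protein that inhibits canonical signaling (1.55 ± 0.22, adjusted p = 1.67e-06). Of 10 Dishevelled and scaffold genes, 5 rose and 3 fell, and the largest changes were in the planar cell polarity genes VANGL2 (log2 2.12 ± 0.10, adjusted p = 8.32e-14) and PRICKLE2 (1.32 ± 0.17, adjusted p = 5.58e-07). In the destruction complex 5 of 11 genes were higher and 5 lower, near the shares of all tested genes. Its largest changes were falls, of FAM123B, which encodes the APC-binding protein AMER1 (log2 -1.30 ± 0.07, adjusted p = 2.7e-13), and APC2 (-1.14 ± 0.08, adjusted p = 1.12e-10). Of 17 genes for beta-catenin and its nuclear partners, 11 rose and 4 fell. The 17 include TCF7L1 and TLE4, which were under the expression minimum in every DMSO library. The kinase TNIK (log2 2.11 ± 0.23, adjusted p = 4.67e-08) and the corepressor TLE1 (2.03 ± 0.06, adjusted p = 2.46e-17) were among those that rose. TCF7L1, which mostly represses WNT targets, was at 0.144 to 0.387 CPM in DMSO and 1.60 to 2.44 CPM in COMBO. CTNNB1, which encodes beta-catenin, changed by 0.21 ± 0.04 (adjusted p = 1.2e-05). Of 9 other WNT target genes 8 rose and none fell in COMBO, where 43.3% of all tested genes rose and 39.2% fell, and in GSK 7 rose and 1 fell, against 40.0% and 35.7%. The 1 that fell in GSK was MYC (log2 -0.56 ± 0.05, adjusted p = 8.53e-09). MYC rose in GDC (log2 0.78 ± 0.05, adjusted p = 1.43e-09). Its mean level was 254 CPM in DMSO, 435 CPM in GDC, 173 CPM in GSK and 291 CPM in COMBO. For COMBO against GSK, 4 of the 9 target genes were higher and 4 lower, where 19.0% of all tested genes were higher and 26.9% lower. SP5, CD44, PROX1 and TDGF1, the rest of the 13 target genes listed, were too low to test. In the order DMSO, GDC, GSK and COMBO, SP5 had 33, 27, 12 and 22 counts and CD44 had 4, 3, 1 and 0. PROX1 had 7, 12, 13 and 43, and TDGF1 had 0, 0, 3 and 17. SOX9 rose in COMBO (log2 2.59 ± 0.09, adjusted p = 3.46e-16), and BMP4 was at 0.211 to 0.498 CPM in DMSO and 0.874 to 1.10 CPM in COMBO. SOX9, a transcription factor with roles in prostate development, was at 9.37, 8.63 and 8.85 CPM in DMSO, 10.4, 9.67 and 10.5 CPM in GDC, 40.3, 45.7 and 39.1 CPM in GSK and 47.8, 54.5 and 58.8 CPM in COMBO. The GSK and COMBO libraries of SOX9 were all above those of the other arms.

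**Figure D4:**
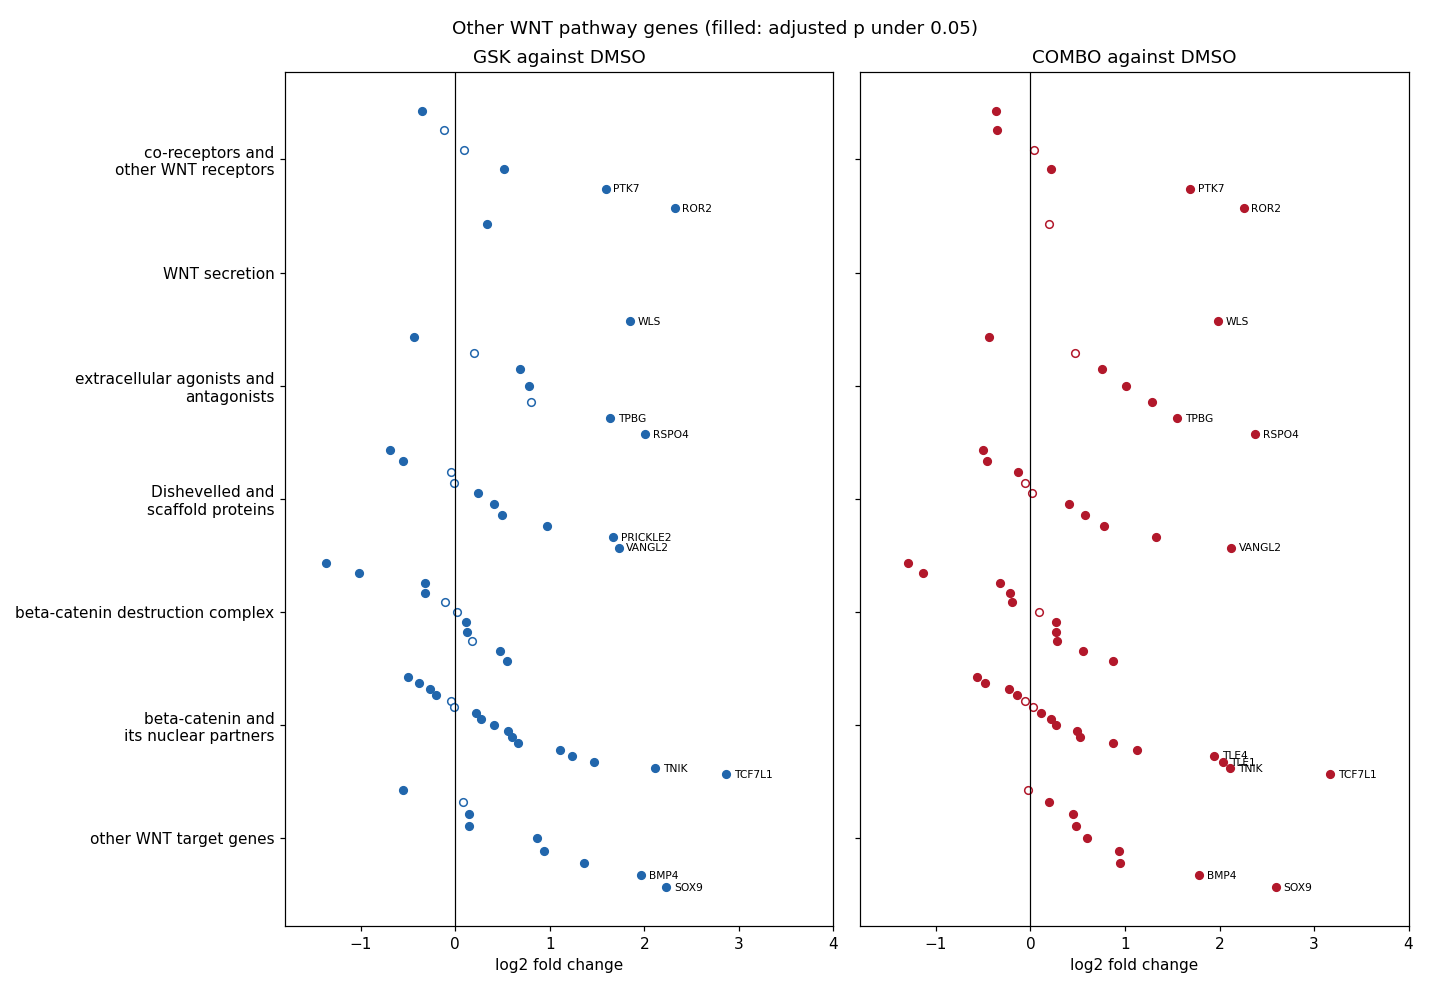
Log2 fold change (horizontal axes) in GSK and in COMBO against DMSO of the 62 tested WNT pathway genes outside the symbol rule, 1 circle per gene by role, filled where the adjusted p was under 0.05, with names at changes of 1.5 or more on the log2 scale. TCF7L1 lies at 3.17 in COMBO but, like ROR2, TLE4 and BMP4, was under the expression minimum in every DMSO library, and FAM123B and APC2 of the destruction complex lie farthest below 0 in COMBO.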

How the data were processed

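Library type and strand are not given in the sources used here. The authors aligned the reads to hg38 with STAR and counted them per gene symbol with HTSeq, versions and annotation not stated, and deposited raw counts for each library; the 5 summary lines of each table, with 23.7% to 33.7% of its reads, were left out. A deposited table normalized with DESeq2 was not used.

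All 12 libraries were fitted together in edgeR 4.0.16 (R 4.3.3), with TMM scaling, filterByExpr and the quasi-likelihood test (glmQLFit and glmQLFTest), 1 coefficient per arm and no block. Each treated arm was compared with DMSO, COMBO with GDC and with GSK, and the interaction is COMBO minus GDC minus GSK plus DMSO. Tests were two-sided, with Benjamini-Hochberg adjustment over 14189 genes and a threshold of 0.05. The common biological coefficient of variation was 0.0499. Intervals of count ratios are exact conditional ones at 95%. The limit that a count of 0 allows, 3 counts, came to 0.0722 to 0.330 CPM per library. CPM is not scaled to gene length, so levels were compared within genes only. Replicates differed by more than sampling noise (chi-square per degree of freedom 1.82 to 6.69). Positions and exon overlaps are from GENCODE 44 on hg38, the build of the files. The fit was tested on simulated data first.

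Values in every library are given for those of the 49 genes that were called with a change of at least 2-fold in an arm, and for AXIN2, LEF1, TCF7, NKD1, RNF43, ZNRF3 and LGR5 whatever their values. The genes, lists and tests were chosen with earlier results of these data known. Alternatives were DESeq2 1.42.0, its size factors, scaling by library totals, a mean of at least 1 CPM or no filter at all, only the arms compared, a replicate block and leaving out each library, with TMM factors re-estimated or, as added after seeing the data, held.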

Additional observations from a re-analysis of the deposited data

Results flagged for a closer look

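The effect of GDC-0941 differed with and without GSK126, by the interaction term of the edgeR fit, for 6 of the 28 tested WNT pathway genes. Of these, 3 were higher and 3 lower. Over all 14189 tested genes 3034 were called, 4.86% higher and 16.5% lower. The count is therefore no result about the WNT genes as a group. The difference on the log2 scale was 0.93 ± 0.09 for WNT5A (adjusted p = 6.23e-07), 0.85 ± 0.17 for LEF1 (adjusted p = 0.00102), 0.34 ± 0.09 for FZD3 (adjusted p = 0.0116), -0.39 ± 0.10 for WNT7B (adjusted p = 0.00821), -0.83 ± 0.29 for TCF7 (adjusted p = 0.0432) and -1.37 ± 0.47 for SFRP1 (adjusted p = 0.0449), where a negative value means a lower effect with GSK126. SFRP1 was under the expression minimum in every DMSO library, so its value is no support for a difference. The calls of WNT5A, LEF1 and FZD3 were kept in all 18 alternatives, whereas those of TCF7, SFRP1 and WNT7B were lost in 16 of 17, 12 of 16 and 5 of 18. With the TMM factors of all 12 libraries held while 1 was left out, WNT7B kept the call in 12 of 12 fits, and TCF7 and SFRP1 lost it in 8 and 10.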

How the results depend on the processing

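The numbers of genes called stayed within 1.5 times the main number for the 5 comparisons of arms when another tool, scaling or filter, the replicate block or fewer arms were used, and when 1 library was left out with TMM factors re-estimated. They ran from 9 to 12 (main 13) in GDC, 21 to 26 (main 23) in GSK, 23 to 26 (main 24) in COMBO, 20 to 24 (main 22) for COMBO against GDC and 8 to 11 (main 10) for COMBO against GSK. For the interaction (main 6) leaving out 1 library gave 3 to 6, with 3 without DMSO C and without GDC B. Leaving out 1 library with the TMM factors held, an alternative chosen after seeing the data, gave 4 to 6 for the interaction and 8 to 11 in GDC, with 8 without DMSO B and without DMSO C. With the replicate letters as a replicate block the numbers were 12, 23, 24, 22, 10 and 5; of 18 same-letter pairs 2 had correlated deviations over 0.1, and 6 of 12 libraries correlated best with their own letter, so the letters were not taken to pair the samples.

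Of 844 values of the genes given in full, 775 kept their direction and side of the threshold, 46 lost the call, 8 gained it and 15 changed sign, all of values not called. The sign changes were those of TCF7 in GDC with DESeq2 (-0.0068) and with no filter (-0.023), and others on leaving out 1 library. Over those fits TCF7 in GDC ran from -0.21 to 0.13 and NKD1 in GDC from -0.027 to 0.27, and in the interaction FZD9 ran from -0.27 to 0.0093, NKD1 from -0.23 to 0.058, WNT2B from -0.42 to 0.80, WNT8B from -0.26 to 0.050 and WNT9A from -0.24 to 0.28. The cause was not tested. The median of all genes moved by 0.12 in COMBO with DESeq2 and with no filter, and by 0.11 in the interaction with no filter. Scaling by library totals moved it by 0.15 in GSK and 0.21 in COMBO, and FZD3 (0.25), FZD6 (0.19) and LGR4 (0.28) were then called in GSK. The AXIN1 call in GDC was lost with library totals (-0.11, adjusted p = 0.105) and with the replicate block (-0.15, adjusted p = 0.0577), and the TCF7 interaction was lost with the block (-0.84, adjusted p = 0.0541). With DESeq2 the calls of FZD2, FZD3, SFRP1 and WNT10A in GDC, TCF7 in GSK, LGR4 in COMBO, LGR4 and NKD1 for COMBO against GDC and WNT8B for COMBO against GSK were lost (adjusted p 0.0538 to 0.182), and with library totals that of FZD8 in COMBO (-0.48, adjusted p = 0.0585). FZD6 was called in COMBO with library totals (0.31, adjusted p = 8.16e-05) and among genes averaging 1 CPM or more (0.14, adjusted p = 0.0401). With TMM factors held, FZD6 was called in COMBO without DMSO A (0.15, adjusted p = 0.028). With no filter, some of the genes too low to test were called, each from 11 or fewer counts in the arm. These were DKK3, LGR6 and WNT5B in GSK (adjusted p 0.00493 to 0.0294) and DKK3, WNT2 and WNT3A in COMBO (adjusted p 0.00362 to 0.0417). The calls rest on few reads in the arms where these genes were higher, and are no support for a rise.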
